A study of Homo sapiens with 4 samples.

Results

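The TAM receptors and their ligands are 5 genes, taken by name from the 63677 genes of the table. They are the receptor tyrosine kinases AXL, TYRO3 and MERTK and the secreted proteins GAS6 and PROS1 (protein S). Each symbol had 1 row, and all 5 genes passed the filter on low counts that left 16064 genes to test. The cells were MDA-MB-231, an established human line from a triple-negative breast cancer, which lacks the oestrogen and progesterone receptors and amplified ERBB2. One group was transfected with a control siRNA (siCt, 2 libraries) and the other with pooled siRNAs that target AXL (siAXL, 2 libraries), both with a lipid transfection reagent, and RNA was sequenced. All 4 libraries thus come from transfected cells of a single line grown in medium with foetal bovine serum. An siRNA pool lowers a transcript without deleting its gene. The labels do not say whether the libraries of a group came from separate cultures, so that the p-values measure only the spread between these libraries.

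TAM receptors sit in the plasma membrane and are activated by ligands that bridge them to phosphatidylserine, a lipid that dying cells and some living cells expose on their outer surface. GAS6 binds all members of the receptor family, whereas protein S, which also circulates as an anticoagulant, binds TYRO3 and MERTK. Both ligands need vitamin K-dependent carboxylation of their Gla domain to bind the lipid. In carcinoma cells AXL is known for its part in invasion, survival and resistance to drugs, and MERTK in macrophages for the uptake of apoptotic cells.

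The GAS6 promoter is shown because a second transcript, GAS6-AS2, starts inside it on the opposite strand, 92 bases before the start of GAS6, and was counted in the same libraries. The sequence is the 250 bases before the RefSeq start of GAS6, at chr13:113864077-113864326 on the minus strand (GRCh38.p14), written 5′ to 3′ in the direction of GAS6. Capitals mark the GC boxes, GGGCGG read on either strand.

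GAS6 promoter: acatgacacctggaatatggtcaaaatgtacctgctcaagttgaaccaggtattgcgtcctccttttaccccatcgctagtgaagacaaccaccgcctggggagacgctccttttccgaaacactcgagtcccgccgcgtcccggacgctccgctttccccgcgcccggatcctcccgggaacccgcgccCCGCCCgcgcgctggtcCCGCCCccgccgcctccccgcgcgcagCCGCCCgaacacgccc

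This window held 3 GC boxes and was 66.8% G or C. The same letters occurred in 42.6% of 35116 RefSeq promoter windows of the same length. Other motifs were searched on both strands and had no match in it. They were the TATA box TATAAA, held by 10.7% of all windows, the AP-1 site TGANTCA, held by 6.57%, and the TEAD site GGAATG, held by 11.9%. The core ACGTG of the hypoxia response, held by 18.5%, lies inside the E-box CACGTG, held by 6.35%.

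The 4 libraries held between 39574387 and 44585773 reads assigned to genes, and a count of 0 allows up to 0.0673 to 0.0758 CPM (read counts scaled by the total reads of the library). Mitochondrial genes took 3.70% and 3.78% of the reads in siCt 1 and siAXL 1, and 2.11% and 2.28% in siCt 2 and siAXL 2. Markers of this line were present in all libraries, VIM among them at 86751 to 99296 normalized counts, and the summed level of the 6 markers was 4438 to 4516 CPM in siCt and 4776 to 4784 CPM in siAXL, with CAV1 called higher. Of 5 genes listed as low or absent in the line, ESR1 did not pass 3.25 and PGR 1.94 normalized counts, and CDH1 was called lower. ERBB2 was called higher, at 3089 and 2949 normalized counts in siCt and 3680 and 3536 in siAXL. EPCAM was at 565 and 625 in siCt and 711 and 771 in siAXL, so that ERBB2 and EPCAM were not absent here. The sum of the 5 was 85.6 to 88.2 CPM in siCt and 98.9 to 102 CPM in siAXL. Macrophage markers, relevant because macrophages express MERTK and AXL, summed to 9.62 to 11.3 CPM in siCt and 7.45 to 8.71 CPM in siAXL. The leukocyte gene PTPRC did not pass 16.7 and CD163 2.17 normalized counts. The call of CSF1R, 1 of the 4 markers, ended with a filter of at least 1 read in any library. In the main test CSF1R was called lower, at 330 and 399 normalized counts in siCt and 213 and 252 in siAXL. CD14 went the other way, from 69.0 and 73.7 to 100 and 113, and was not called (log2 fold change 0.57, limma adjusted p = 0.0509). Endothelial markers summed to 0.202 to 0.294 CPM in siCt and 0.337 to 0.493 CPM in siAXL, with PECAM1 at 0 throughout. Fibroblast markers summed to 7.59 to 8.47 CPM in siCt and 10.3 to 11.2 CPM in siAXL, with PDGFRB called higher and DCN at 1.97 normalized counts or less. LUM had a log2 fold change of -0.46 and was not called (limma adjusted p = 0.411). All libraries were made from a single line, and the source of the reads of these other markers was not tested. The part of the mitochondrial share in the results was not tested either.

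The comparison of siAXL with siCt asks how the other TAM receptors and the ligands stood when AXL was lowered. AXL fell to 26.4% of its siCt level, and both ligand genes rose, GAS6 1.37-fold and PROS1 1.69-fold. TYRO3 and MERTK had higher means in siAXL, 1.28 and 1.19 times those in siCt, and neither passed the test. Values are normalized counts, which are reads over each library's DESeq2 size factor. They were tested with limma on log2(normalized count + 1), and calls were made at a p under 0.05 after Benjamini-Hochberg adjustment over all genes tested. Of all genes tested, 18.7% were called, 10.8% higher and 7.91% lower in siAXL. Of the 5 genes, 3 were called, 2 of them higher. In 61.2% of all genes tested the libraries of the groups did not overlap, as was the case for each of the 5. In bulk RNA, fewer cells with a transcript cannot be told apart from less RNA per cell.

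AXL (ENSG00000167601), the targeted receptor, stood at 29189 and 30617 normalized counts in the siCt libraries (replicates 1 and 2) and at 8658 and 7141 in the siAXL libraries. The siAXL libraries were both far below the siCt libraries, at 0.233 to 0.297 of them. The group means were 29903 ± 1010 and 7900 ± 1073 (SD, n = 2), and limma gave a log2 fold change of -1.93 ± 0.0918 (SE, adjusted p = 0.000585). Among all genes tested, 9 had a more negative log2 fold change. The depth was ample for a difference within the siAXL pair. The exact Poisson intervals of 95% for AXL ran from 196 to 204 CPM in siAXL 1 and from 159 to 167 CPM in siAXL 2, so that these intervals, which cover counting error only, were apart.

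TYRO3 (ENSG00000092445), a receptor best known from the nervous system, had 691 and 682 normalized counts in siCt 1 and siCt 2, and 797 and 962 in siAXL 1 and siAXL 2. Both siAXL libraries were above both siCt libraries, but they differed from each other more than the siCt libraries did. Its means were 686 ± 6.95 in siCt and 880 ± 116 in siAXL (SD, n = 2). By limma the log2 fold change was 0.35 ± 0.102 (SE, adjusted p = 0.0539), with a 95% interval from 1.08 to 1.51-fold. TMM scaling in limma (adjusted p = 0.0475), edgeR with TMM (adjusted p = 0.0455) and DESeq2 (adjusted p = 0.0473) placed it past the threshold, and edgeR with DESeq2 size factors did not (adjusted p = 0.0508). Leaving out siAXL 2 brought the log2 fold change to 0.22, and without any other single library it was 0.34 to 0.49. A fit without 1 library took no spread from that library's group, so no p-value is given for it. Among all genes tested, 2075 (12.9%) had a larger positive fold change.

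MERTK (ENSG00000153208), the receptor of apoptotic cell uptake, had 1401 and 1358 normalized counts in siCt 1 and siCt 2, and 1798 and 1475 in siAXL 1 and siAXL 2. The higher value stood in siAXL 1, whereas for TYRO3 it stood in siAXL 2. Its means were 1379 ± 30.6 in siCt and 1636 ± 228 in siAXL (SD, n = 2), and by limma the log2 fold change was 0.24 ± 0.098 (SE, adjusted p = 0.135), with a 95% interval from 1.01 to 1.39-fold. The counting intervals of the siAXL pair were apart for MERTK, at 39.6 to 43.5 and 32.0 to 35.4 CPM, and also for TYRO3, at 17.2 to 19.7 and 20.6 to 23.4 CPM. Leaving out siAXL 1 brought the log2 fold change of MERTK to 0.097 and leaving out siAXL 2 to 0.38.

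GAS6 (ENSG00000183087), the ligand of all the TAM receptors, had 12547 and 12305 normalized counts in siCt 1 and siCt 2, and 16918 and 17166 in siAXL 1 and siAXL 2. The pairs were close within each group, with the higher library 1.02 times the lower in siCt and 1.01 times in siAXL, and the groups were well apart. Its means were 12426 ± 171 and 17042 ± 176 (SD, n = 2). By limma it rose by 0.46 ± 0.0522 on the log2 scale (SE, adjusted p = 0.00329), with a 95% interval from 1.26 to 1.49-fold, and 1369 genes tested (8.52%) had a larger fold change.

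PROS1 (ENSG00000184500), the ligand of TYRO3 and MERTK, had 1002 and 1120 normalized counts in siCt 1 and siCt 2, and 1732 and 1849 in siAXL 1 and siAXL 2. Every siAXL library was 1.55 to 1.85 times every siCt library. Its means were 1061 ± 83.7 and 1790 ± 83.1 (SD, n = 2), and by limma it rose by 0.76 ± 0.0795 on the log2 scale (SE, adjusted p = 0.00265). The 95% interval was 1.48 to 1.92-fold, and 428 genes tested (2.66%) had a larger fold change.

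**Figure D1:**
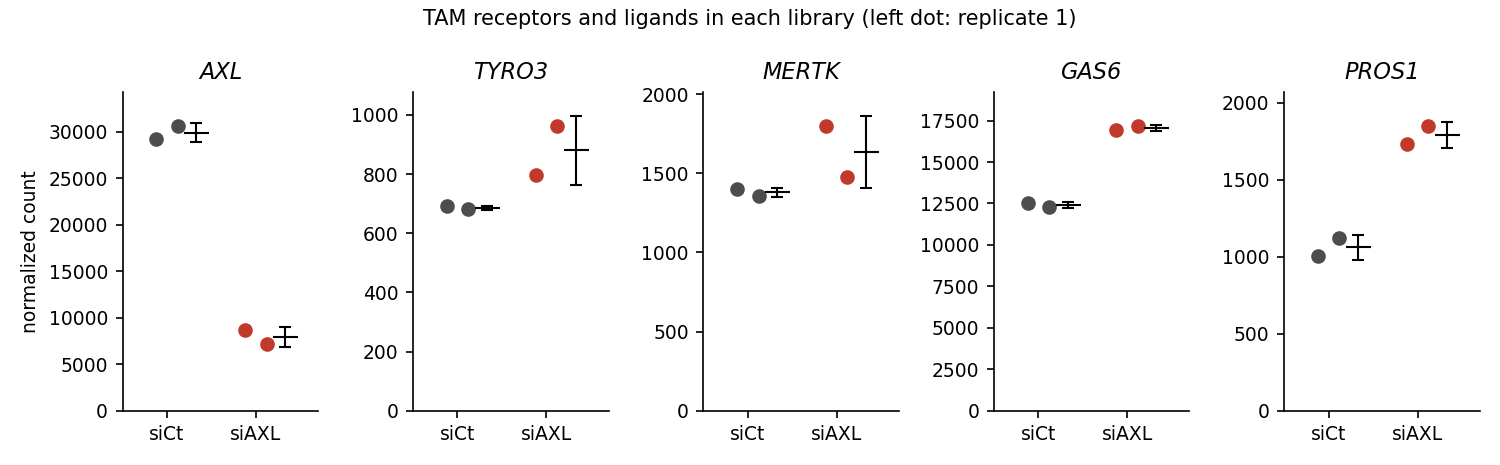
Normalized counts (linear axes from 0) of the 3 TAM receptors and 2 ligands in each of the 4 libraries, with points for libraries, horizontal lines for the group means and whiskers for the SD. AXL lay at 7141 to 8658 in siAXL against 29189 to 30617 in siCt, and GAS6 and PROS1 were higher in both siAXL libraries.

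**Figure D2:**
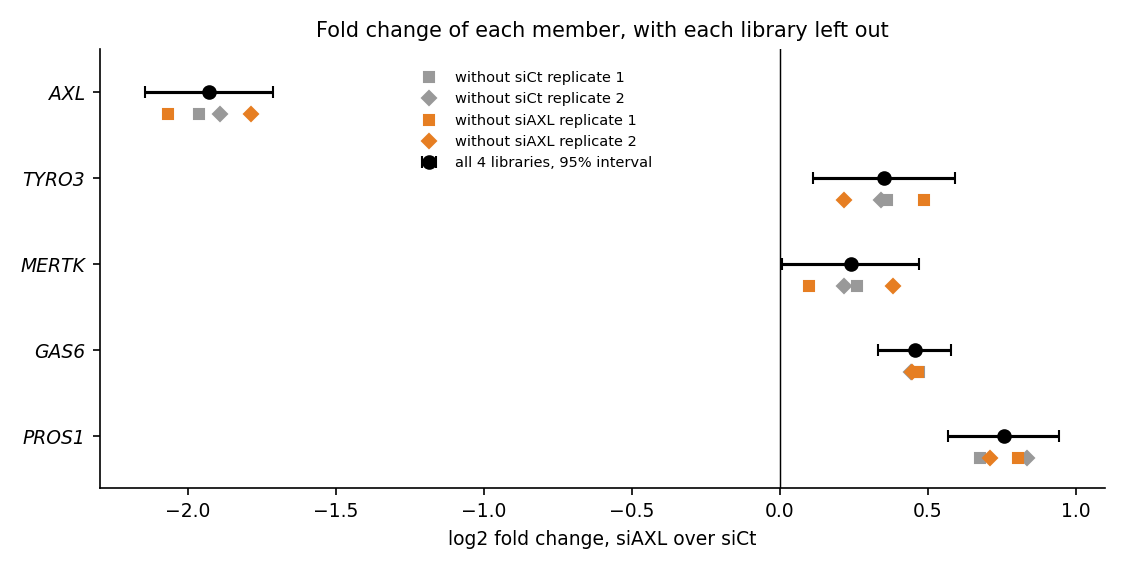
Log2 fold change of siAXL over siCt for the 5 genes from limma, with bars for the 95% intervals and smaller markers for the fit with each library left out. AXL stands at -1.93 and PROS1 at 0.76, while the left-out values of MERTK run from 0.097 to 0.38.

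Reads of other loci could have entered these counts, since the strand setting of the counting is not given in the sources used here. The pseudogene PROSP, a near copy of PROS1, had at most 0.98 normalized counts in any library, and TYRO3P, a pseudogene of TYRO3, at most 1.94. GAS6-AS1, which overlaps GAS6 on the other strand, stayed at 1.97 or less. The other annotated genes that overlap AXL, MERTK or PROS1 were at 0 in all libraries, and none overlaps TYRO3. GAS6-AS2, whose start lies in the promoter printed above, had 222 and 207 normalized counts in siCt and 221 and 248 in siAXL. Its log2 fold change was 0.13 (limma adjusted p = 0.503, 95% interval 0.90 to 1.33-fold), beside 0.46 for GAS6, and the difference between them was not tested.

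Genes near the members on their chromosomes were looked at next. Near AXL, HNRNPUL1, an RNA-binding protein gene, had a log2 fold change of -0.03 (limma adjusted p = 0.70), and CCDC97 fell from 1561 and 1682 to 1097 and 1175 normalized counts (limma adjusted p = 0.00603). TGFB1, the gene of a growth factor on the far side of HNRNPUL1, rose by 0.53 (limma adjusted p = 0.0112), and CYP2S1 upstream was at -0.25 (limma adjusted p = 0.380). Downstream of MERTK, TMEM87B, which encodes a membrane protein, rose from 2697 and 2293 to 4610 and 4529 normalized counts, a log2 fold change of 0.88 (limma adjusted p = 0.00210). FBLN7, an extracellular matrix gene beyond it, rose by 0.60 (limma adjusted p = 0.0280). Both fold changes were above the 0.24 of MERTK itself, and these differences were not tested. Upstream of MERTK, ANAPC1, a subunit of the anaphase-promoting complex, rose by 0.41 (limma adjusted p = 0.0216), and BCL2L11, a gene of apoptosis, fell by 0.36 on the log2 scale (limma adjusted p = 0.0276). Beside GAS6, TMEM255B rose by 0.51 (limma adjusted p = 0.00893) and RASA3, a Ras GTPase-activating protein gene, by 0.23 (limma adjusted p = 0.0265). Downstream of TYRO3, MAPKBP1 was at 0.07 (limma adjusted p = 0.655) and MGA at -0.22 (limma adjusted p = 0.402). Upstream of it, LTK, another receptor tyrosine kinase, rose from 131 and 81.3 to 240.9 and 201.4 normalized counts, by 1.08 (limma adjusted p = 0.0216), and RPAP1 was at -0.0058 (limma adjusted p = 0.960). Near PROS1, STX19 had at most 0.96 normalized counts. TGFB1, CYP2S1, ANAPC1, BCL2L11, LTK and RPAP1 were added after their values were seen. The calls of TGFB1, LTK, ANAPC1, BCL2L11, FBLN7 and RASA3 ended with a filter of at least 1 read in any library, and all of these but TGFB1 also with 1 or more libraries left out.

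Levels of different genes were compared as RPKM, read counts scaled by both the exon length of the gene and the total reads of the library, using the summed exon length of each gene in GENCODE release 29. In siCt, AXL was the highest of the 5 at 136 ± 3.65 RPKM (SD, n = 2), above 98.6% of 13081 tested coding genes. GAS6 followed at 49.2 and 47.8 RPKM in the 2 libraries and MERTK at 7.02 and 6.74, then PROS1 at 4.57 ± 0.329 and TYRO3 at 1.47 ± 0.0251. No neighbours in this order overlapped between libraries. In siAXL the order became GAS6 at 65.2 ± 0.162 RPKM, AXL at 35.2 ± 5.06, MERTK at 8.83 and 7.17 in the 2 libraries, PROS1 at 7.55 ± 0.292 and TYRO3 at 1.84 ± 0.230. AXL thus remained above 90.6% of the tested coding genes after the knockdown. PROS1, at 7.35 and 7.76 RPKM in the siAXL libraries, overlapped with MERTK, and with the longest annotated transcript as the length PROS1 was the higher, at 11.2 and 11.8 RPKM against 10.5 and 8.52.

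AXL made up 94.0% and 94.4% of the receptor transcripts per length in siCt, and 78.7% and 77.5% in siAXL. The share of MERTK went from 4.77% ± 0.252 to 17.7% ± 0.250 and that of TYRO3 from 1.02% ± 0.0416 to 4.16% ± 1.07 (SD, n = 2). These shares move with the fall of AXL by construction. The 3 receptors together went from 144 ± 3.43 to 45.1 ± 6.01 RPKM, and both ligands together from 53.1 ± 0.674 to 72.7 ± 0.453 RPKM. The mean of AXL was 100.7 RPKM lower, and the mean of TYRO3 and MERTK together was higher by 1.49% of that difference. The ratio of ligand to receptor transcripts was 0.377 and 0.358 in siCt and 1.47 and 1.79 in siAXL, 4.43 times as high. With the longest annotated transcript as the length, a choice made after seeing the data, the ratio was 0.761 and 0.720 in siCt and 2.89 and 3.51 in siAXL, 4.32 times as high, since GAS6 then stood at 112 and 108 RPKM in siCt and at 148 RPKM in both siAXL libraries. For each of these sums, shares and ratios the groups did not overlap, as in 61.2% of all genes tested. The exact two-sided permutation p was 0.333, the smallest that 2 against 2 libraries can give. The receptor sum and the ratio contain AXL, the siRNA target, so that like the receptor shares they move with its fall by construction. In siAXL the receptor sum was 0.312 times and the ligand sum 1.37 times that in siCt. GAS6 made up most of the ligand transcripts in both groups, 91.4% ± 0.729 in siCt and 89.6% ± 0.336 in siAXL.

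**Figure D3:**
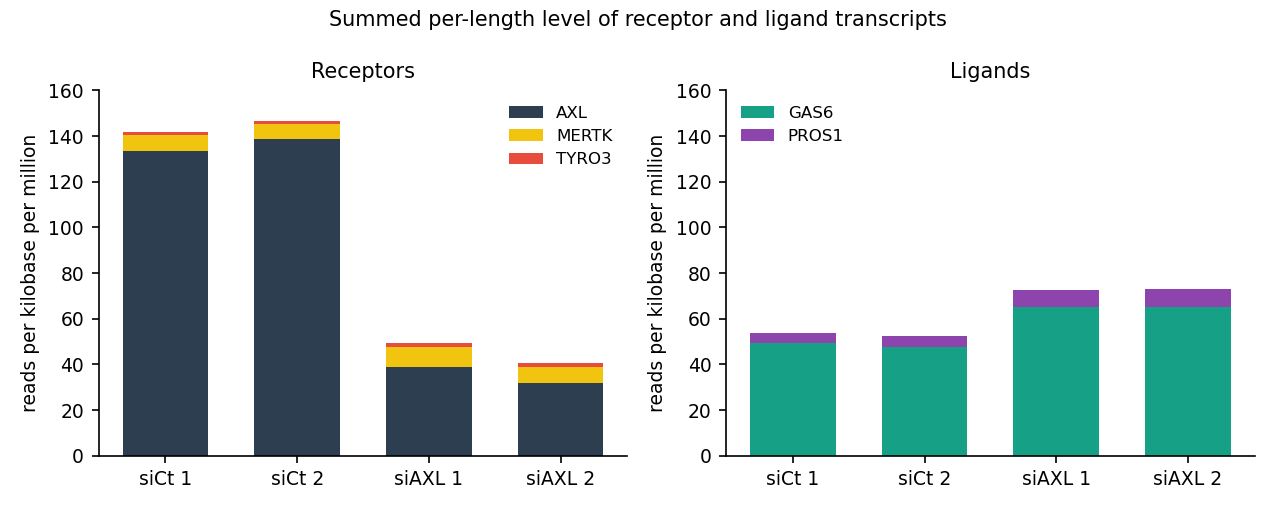
Stacked bars of the RPKM of the receptors (left) and the ligands (right) in each library, with reads scaled by summed exon length and by the library's total reads. AXL makes up 94.2% of the receptor transcripts per length on average in siCt and 78.1% in siAXL, and GAS6 is above AXL only in the siAXL libraries.

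Genes of the pathway around the receptors were followed in 8 lists with 102 genes, of which 85 were tested. The lists were written from general knowledge, but with earlier results of these data known. They were not matched by level to all genes tested, so the shares below are a description. Of these, 24 were higher, 2 lower and 59 not called, or 30.6% called beside the 18.7% of all genes tested. That 18.7% was made up of 10.8% called higher and 7.91% called lower. Their median log2 fold change was 0.095 beside -0.0022 for all genes tested.

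The ligands are made functional by GGCX, the vitamin K-dependent carboxylase. It rose from 3744 and 3922 normalized counts in siCt to 4654 and 4723 in siAXL, a log2 fold change of 0.29 (limma adjusted p = 0.0150). FURIN, a protease that removes propeptides in the secretory pathway, rose from 2748 and 2748 to 4085 and 4296, by 0.61 (limma adjusted p = 0.00210). Thus 2 of the 7 genes of this list rose and 1 fell, and the median was 0.14. Of all genes tested, 10.8% were called higher and 7.91% lower. VKORC1, the vitamin K epoxide reductase, was at 0.30 (limma adjusted p = 0.0846). Among the other Gla domain proteins, 4 of 12 genes were tested and PRRG1, a transmembrane Gla protein, was the only call, at 0.33 (limma adjusted p = 0.0252), while the list's median was -0.32. None of the 4 was called lower by limma, edgeR or DESeq2, and 1 had an unadjusted p under 0.05 in that direction. At the share of 7.91% called lower over all genes tested, a list of 4 can well hold 0.

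Phosphatidylserine reaches the outer surface through scramblases and is returned by flippases. Of 9 tested genes of this list, 2 rose, 1 fell and the median was -0.10. ANO6, a calcium-activated scramblase, rose by a log2 fold change of 0.35 (limma adjusted p = 0.00960), as did TMEM30A, the flippase subunit, by 0.24 (limma adjusted p = 0.0298). XKR8, the scramblase cleaved by caspases, fell by 0.31 on the log2 scale (limma adjusted p = 0.0416), a call that DESeq2 did not make. Of the other phosphatidylserine receptors and bridging proteins, 6 of 13 genes were tested and 3 rose, with a median of 0.32. MFGE8, which like GAS6 bridges the lipid to receptors, rose from 4264 and 3890 normalized counts to 6115 and 5783, by 0.55 (limma adjusted p = 0.00369). Of the 3 integrin subunits in the list, ITGB5 rose by 0.49 (limma adjusted p = 0.00273) and ITGAV by 0.33 (limma adjusted p = 0.0162), and ITGB3 was at 0.30 (limma adjusted p = 0.218). None of the 6 was lower by limma, edgeR or DESeq2, and 0 had an unadjusted p under 0.05 in that direction. Over all genes tested the shares were 10.8% called higher and 7.91% lower, and at the latter a list of 6 can well hold 0.

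AXL and MERTK are cleaved from the surface by ADAM proteases, and the stump of AXL is cut in the membrane by gamma-secretase. Of 8 genes of this cleavage, 5 rose and 0 fell by limma, edgeR and DESeq2, also at an unadjusted p under 0.05. The median log2 fold change was 0.28. Beside this, 10.8% of all genes tested were called higher and 7.91% lower, and at the latter share a list of 8 can well hold 0. NCSTN, a gamma-secretase subunit, rose by 0.42 (limma adjusted p = 0.00501), ADAM17 by 0.35 (limma adjusted p = 0.00947) and APH1B, another subunit, by 0.46 (limma adjusted p = 0.00965). ADAM10, named after its value was seen, rose by 0.26 (limma adjusted p = 0.0344).

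Other receptors reported to pair with TAM receptors also included 5 called higher of 8, with a median of 0.28. In this list 0 were lower by limma, edgeR or DESeq2, also at an unadjusted p under 0.05. The shares over all genes tested were again 10.8% called higher and 7.91% lower. EGFR, the epidermal growth factor receptor, rose from 7355 and 7136 normalized counts in siCt to 12921 and 15004 in siAXL, by a log2 fold change of 0.94 (limma adjusted p = 0.00166). MET, the receptor of hepatocyte growth factor, rose by 0.49 (limma adjusted p = 0.00611) and PDGFRB by 0.54 (limma adjusted p = 0.0130). The other calls, named after their values were seen, were IFNAR1 at 0.30 and ERBB2 at 0.26 (limma adjusted p = 0.0144 and 0.0258).

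Most adaptors and effectors of TAM signalling were not called. Of 27 genes, 6 rose and 0 fell, with a median of 0.076, so that 22.2% were called, all higher. Beside this, 10.8% of all genes tested were called higher and 7.91% lower, or 18.7% in either direction. DOCK1, an exchange factor for RAC1 in engulfment, rose by a log2 fold change of 0.39 (limma adjusted p = 0.00893), RAC1 by 0.30 (limma adjusted p = 0.0140) and the adaptor NCK2 by 0.42 (limma adjusted p = 0.0165). None of the 27 was lower by limma, edgeR or DESeq2, and 1 had an unadjusted p under 0.05 in that direction. Of 16 tested genes for transcription factors linked to AXL or MERTK, among them YAP1, TEAD1 and FOSL1, 0 were called by limma or DESeq2 and edgeR called 1, higher. Limma called 18.7% of all genes tested. At an unadjusted limma p under 0.05, 1 of them was higher and 3 were lower, and the median was -0.037.

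**Figure D4:**
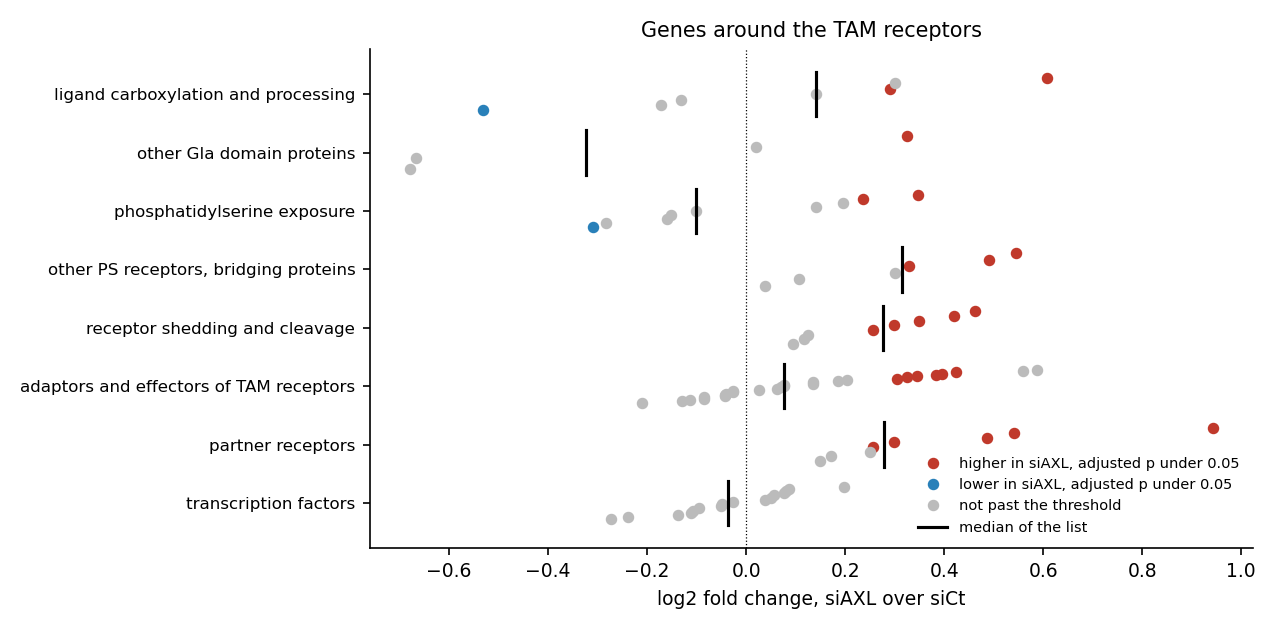
Log2 fold change of siAXL over siCt for each tested gene of the 8 lists, with called genes in red (higher) or blue (lower), other genes in grey and black lines for the medians. Medians run from -0.32 (other Gla domain proteins, 4 genes tested) to 0.32 (other phosphatidylserine receptors and bridging proteins, 6 genes tested), beside -0.0022 for all genes tested.

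Of these named list genes, FURIN, ANO6, MFGE8, ITGB5, ADAM17, NCSTN, APH1B, DOCK1, EGFR and MET kept their call under every alternative. The calls of GGCX, PRRG1, TMEM30A, XKR8, ITGAV, RAC1, NCK2 and ADAM10, as well as ERBB2, ended with a filter of at least 1 read in any library and with 1 or more libraries left out, those of IFNAR1 when either siAXL library was left out, and that of PDGFRB without siAXL 1. No sign changed.

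The genes whose levels moved most like each member were found by the Euclidean distance between centred log2 profiles over the 4 libraries, among 10247 genes whose log2 CPM averaged at least 3. With 4 libraries in 2 groups this likeness is a description. No gene lay within 0.2 of AXL, and the nearest was ATP6V0D2, a subunit of the vacuolar proton pump, at 0.241, followed by GDF15 and CSF2, which encode secreted cytokines, at 0.660 and 0.676. TYRO3 had 693 genes within 0.2, with MBNL3, LINC00863 and LBH nearest, and MERTK had 602, with RASSF4, GGT5 and POLI nearest. GAS6 had 931, and its nearest were ARHGAP22 at 0.0146, PLAT, the tissue plasminogen activator, at 0.0224 and ATAD1 at 0.0271. PROS1 had 68, among them CST1, a secreted cystatin, at 0.0518 and HTRA1, a secreted protease, at 0.0681.

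The word CACATCA in 3′ UTRs was taken up because it had stood out in earlier results of these data. The annotated 3′ UTRs of the 5 genes did not hold it. It occurred in 2099 of 12950 tested coding genes (16.2%), whose median log2 fold change was 0.077 against -0.012 without it. The sequences of the siRNAs were not used here, and the part of any unintended target in these results was not tested.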

How the data were processed

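RNA from MDA-MB-231 cells (siCt and siAXL, 2 libraries each, grouped by their labels) was sequenced on an Illumina instrument. The submitters' processing notes name CASAVA 1.8, TopHat2 2.0.10, HTSeq 0.5.3, DESeq2 1.4.5 and GRCh37. The authors deposited 1 table with a signal of normalized counts, that is reads per gene over each library's DESeq2 size factor. In it 100% of the values were whole multiples of 1 read within 0.01 read, so the reads were recovered. The table's own fold changes and p-values were not used.

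The plan named limma for normalized counts, and edgeR if the table held raw counts. Since the table is normalized, limma 3.58.1 (lmFit, then eBayes with an intensity trend, R 4.3.3) was run on log2(normalized count + 1) for the 16064 genes passing edgeR's filterByExpr, which left out 47613, without covariates. This scale understates changes of low genes. edgeR 4.0.16 and DESeq2 1.42.0 on recovered reads, other scalings, pseudocounts, filters, a replicate block and leaving out each library were alternatives. The procedure was tested on simulated data. Intervals of single libraries are exact Poisson intervals of 95% for counting error only. A count of 0 allows 3 reads. With 2 libraries per group the spread of a single gene is poorly known. Leaving out a library left 1 in its group, so that such a fit took no spread from that group, and calls under it are a rough guide.

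The members and lists were chosen with earlier results of these data known. Named genes were the members, up to 3 called genes per list and direction by smallest adjusted p, the genes listed near or like the members, and 3 nearest profiles per member. Some genes that this rule names are not reported here. The neighbour CCDC97 is near AXL but not adjacent. Exon lengths, overlaps and 3′ UTRs came from GENCODE release 29 (GRCh38) by Ensembl identifier, and the promoter from RefSeq (GRCh38.p14). As the table was made on GRCh37, no gene coordinates are given. RPKM uses total reads, not size factors.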

Additional observations from a re-analysis of the deposited data

How the results depend on the processing

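AXL, GAS6 and PROS1 were called in all 11 other settings. With a library left out, the log2 fold change ran from -2.07 to -1.79 for AXL, 0.44 to 0.47 for GAS6, 0.68 to 0.84 for PROS1, 0.22 to 0.49 for TYRO3 and 0.097 to 0.38 for MERTK. TYRO3 was called in 4 of the 11, by limma with TMM scaling (0.36, adjusted p = 0.0475), edgeR with TMM (0.37, 0.0455), DESeq2 (0.36, 0.0473) and the replicate block (0.35, 3.04e-05). MERTK was called in 1 of the 11, with the replicate block (0.24, limma adjusted p = 0.000291).

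Pathway genes called higher numbered 24, but 13 with a filter of at least 1 read, 37 with the replicate block, 10 at an adjusted p under 0.01, and 12 at the lowest with a library left out (siAXL 2). Those called lower numbered 2, but 1 with that filter, with DESeq2 or at an adjusted p under 0.01, 4 with library sizes without mitochondrial genes, 15 with the block, and 1 to 6 (without siCt 1) with a library left out. With the longest transcript as length the AXL share was 93.6% in siCt and 76.1% in siAXL, and the ratio of ligand to receptor transcripts, an alternative chosen after seeing the data, went from 0.368 to 0.741 in siCt and from 1.63 to 3.20 in siAXL. The summed exon length of GAS6 is 6006 bases and its longest transcript 2646, while those of AXL are 5154 and 4737. Why the counts of calls moved between settings was not tested.

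Over all genes, 3006 were called (57.7% of them higher), against 1097 of 27108 with the filter of at least 1 read, 7310 with the block, 1301 without siAXL 1 and 1518 without siAXL 2. The higher share was 46.8% with library size alone and 45.5% without mitochondrial genes. The numbers 1 and 2 in the labels name no shared batch. The deviations of siCt 1 and siAXL 1 from their group means had r = 0.271 across genes, and the mitochondrial share followed the number. Libraries with the same number were thus partly alike. The samples were still not treated as paired, because no label names a batch and the block left 1 residual degree of freedom. With the block, both TYRO3 and MERTK were called, as given above.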
